A study of Mus musculus with 8 samples.

Results

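The genes of antigen display were followed on 8 mouse arrays: every probe named H2-, the mouse prefix of the major histocompatibility complex (MHC), together with 26 named genes of antigen processing and loading. This rule took 87 of 55681 probes, which carry 66 of 34821 gene names. The samples were mature medullary thymic epithelial cells (mTEC) from Cdx1+/+ mice (3 arrays) and Cdx1-/- mice (3 arrays), and small intestine epithelial cells (SIEC) with 1 array labelled Cdx1+/+ and 1 labelled Cdx1-/-. All mice were of a mixed C57BL/6 and 129 background, and the labels used here name no age. Each mTEC sample pooled 4 to 6 thymi and each SIEC sample pooled 3 mice. The mTEC gate took live CD45- cells positive for Epcam and UEA1 and high for CD80 and MHC class II, so class II protein itself chose the mTEC, and the SIEC gate took live CD45- Epcam+ cells. The series title asks how the loss of Cdx1, an intestinal homeobox transcription factor, bears on ectopic gene expression in mTEC.

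MHC class I molecules carry peptides from inside the cell to CD8 T cells: the proteasome cuts proteins, Tap1 and Tap2 move the pieces into the endoplasmic reticulum, and tapasin (Tapbp) with its partners loads them onto a heavy chain paired with B2m. MHC class II molecules carry peptides made by endosomal proteases to CD4 T cells, guarded by the invariant chain Cd74 and loaded by H2-DM, which H2-O restrains. In the thymus, medullary epithelium uses both routes to show developing T cells the proteins of other organs, while a separate set of cortical enzymes (Psmb11, Prss16, Ctsl) makes the peptides used in positive selection.

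A level here is the log2 of a probe's signal over its array's 75th percentile, and a difference is between 2 such levels. Between 58.6% and 63.5% of spots were well above background on the mTEC arrays and 44.6% to 46.3% on the SIEC arrays, and no spot was saturated. The Cdx1 probe (chromosome 18, 61178558 to 61178617, mouse build mm9) read 5.88, 5.90 and 5.96 in Cdx1+/+ mTEC and 4.80, 4.98 and 4.995 in Cdx1-/- mTEC, a log2 difference of -0.99 (SE 0.09, limma adjusted p = 0.0037). On the SIEC arrays it read 4.87 where the label is Cdx1+/+ and 6.48 where it is Cdx1-/-, so the pair goes against its labels at this probe and SIEC genotypes are given here by label only. The labels do not say where the allele is changed, so the probe is a limited check. The defining mTEC gene Aire was well above background on all 6 mTEC arrays and on no SIEC array, and the 8 intestinal marker genes summed to 28.4 to 32.5 times the 75th percentile in Cdx1+/+ mTEC, 13.9 to 15 in Cdx1-/- mTEC and 1510 to 2590 in SIEC.

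Nearly all of the antigen display genes were measurable in mTEC. Of the 66 gene names, 58 had their probe well above background on all 6 mTEC arrays and 50 on all 8 arrays. A further 7 were measured on all 6 mTEC arrays and on neither SIEC array. Too few arrays measured 5 names for a test: H2-Ea-ps, H2-M10.4, H2-M10.6 and H2-T18 were not well above background on any array, and Ciita, the master regulator of class II genes, was above it on 2 of the 6 mTEC arrays (1 of each genotype) and on no SIEC array. The Ciita probe (chromosome 16, 10526568 to 10526627) read -5.11 to -4.43 in mTEC, next to the weakest detectable signals, so its level was not resolved. The other 61 names were tested. By position 43 of the 66 lie on chromosome 17, where the mouse MHC is, and 1, Cd74, lies 206.4 kb from the Cdx1 probe on chromosome 18.

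Most antigen display genes did not pass the test between Cdx1-/- and Cdx1+/+ mTEC, and those that did were mainly non-classical class I genes. Of 61 tested, 6 were higher in Cdx1-/- mTEC (Tap1, H2-Ob, H2-T9, H2-T10, H2-T24 and H2-M11) and 3 were lower (H2-M1, H2-M5 and H2-M9) at a limma adjusted p under 0.05 over all genes. That is 14.8% of the members tested, near the 12.9% called among all 24256 genes (6.26% higher and 6.59% lower), and 14 members had an unadjusted p under 0.05. The median difference was -0.006 for the members and 0.003 for all genes tested, and the median absolute difference was 0.15 for the members against 0.201 for all. Of the non-classical class I genes 7 of 23 tested passed, 4 higher and 3 lower, against 1 of 9 in class I loading, 1 of 10 in class II, and none of the 2 classical heavy chains, the 6 proteasome genes, Nlrc5, the 7 endosomal enzymes or the 3 remaining H2- names.

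These genotype calls are close to the threshold. The H2-M5 call also sets signal against background, since its probe was well above background on no Cdx1-/- array. Without any 1 of the 3 Cdx1+/+ arrays, or without Cdx1-/- replicate 3, 0 of the 6 higher calls remained. Without Cdx1-/- replicate 1, the only mTEC array on the second slide, 1 remained (H2-Ob), and without Cdx1-/- replicate 2, 2 remained. Over the same fits 1 to 3 members were lower. The call share over all genes also went down, to between 4.34% and 7.28%, with 5 arrays in place of 6. With slide as a block, which is the same fit as the one within the first slide, H2-Ob, H2-M1 and H2-M5 passed. H2-M1 is the one member that passed under all 14 alternatives. Blocking on replicate number ended the H2-M11 call (adjusted p = 0.073) and added Cd1d1 (adjusted p = 0.0344).

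**Figure D1:**
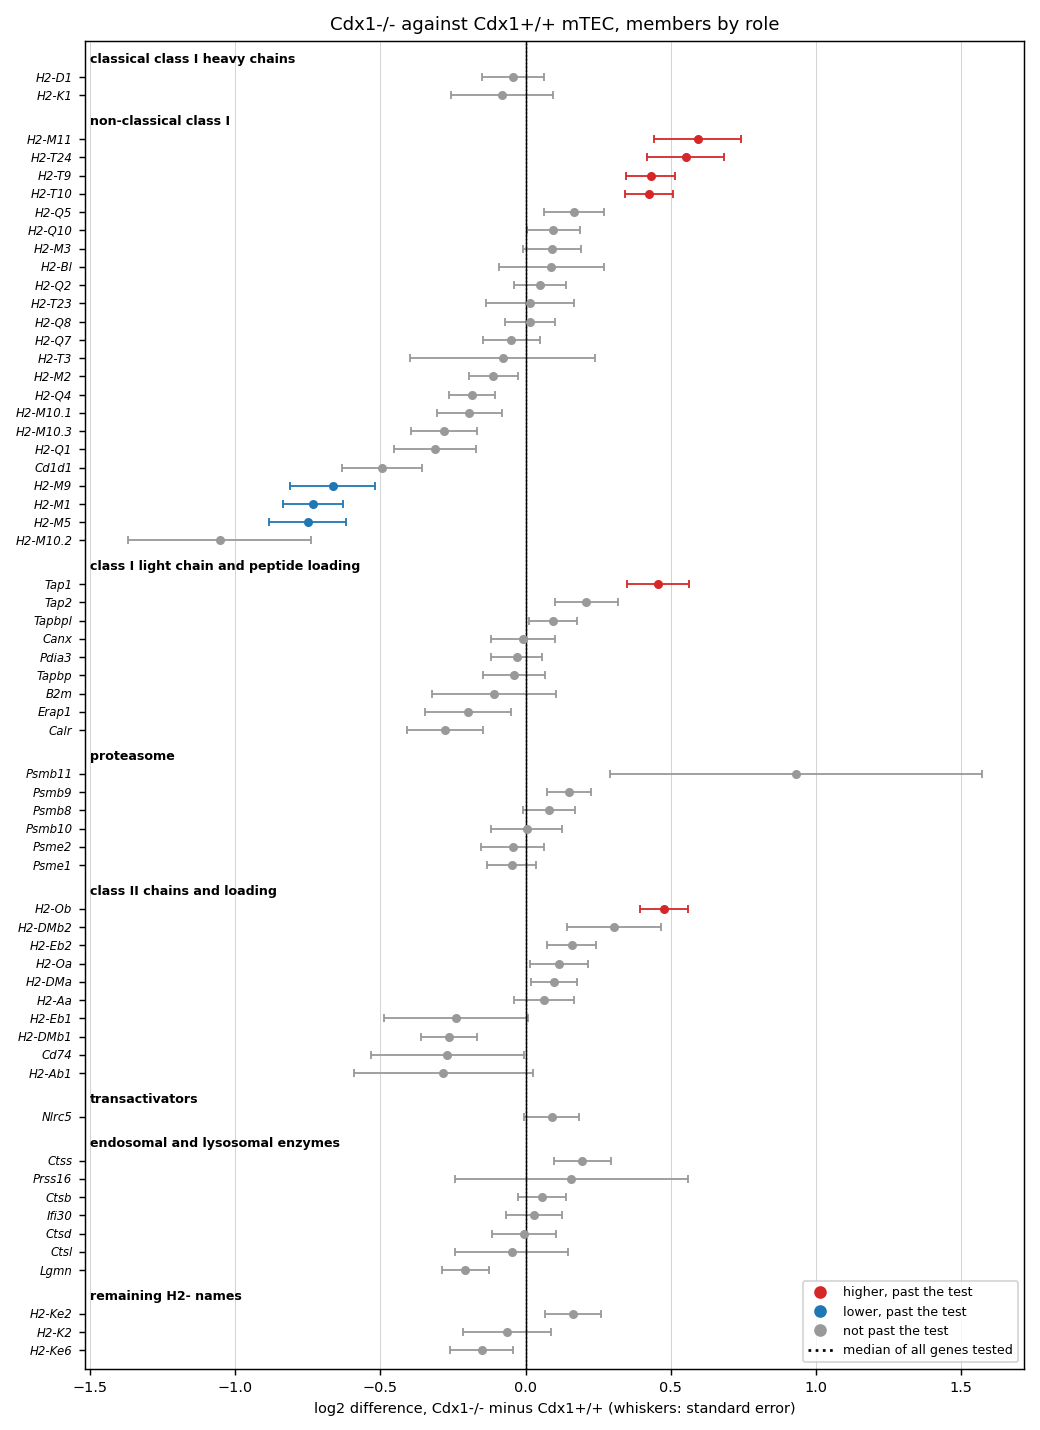
Log2 difference between Cdx1-/- and Cdx1+/+ mTEC for the 61 tested members, grouped by role, with standard errors as whiskers. Red points (6) and blue points (3) passed the limma test, grey points did not, and the dotted line is the median of all 24256 genes at 0.003; most points lie close to it.

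H2-M1, H2-M9 and H2-M11 belong to the family of non-classical class I genes known from vomeronasal neurons, as do the H2-M10 genes. H2-M1 (chromosome 17, 36807013 to 36807072) read -0.68, -0.52 and -0.46 in Cdx1+/+ mTEC and -1.38, -1.15 and -1.32 in Cdx1-/- mTEC. All 3 Cdx1-/- arrays lie below all 3 Cdx1+/+ arrays. H2-M1 fell by 0.73 (SE 0.10, 1.66-fold, adjusted p = 0.0101), and the difference ran from -0.80 to -0.60 over the alternatives. H2-M9 (36777646 to 36777705) read -2.26, -2.14 and -2.16 against -2.74, -2.65 and -3.17, and fell by 0.66 (SE 0.15, adjusted p = 0.0335). A second H2-M9 probe differed by -0.79 and also passed when every probe was tested. H2-M5 (37121007 to 37121066) was well above background on all 3 Cdx1+/+ arrays, at -3.83, -3.87 and -3.94, and on no Cdx1-/- array, where it read -4.85, -4.66 and -4.38. Against the weakest detectable signals of those arrays it was, in the main scaling, at least 1.67-fold lower in Cdx1-/- mTEC. H2-M5 entered the test through the Cdx1+/+ arrays alone, so its limma adjusted p of 0.0177 sets signal against background. After normexp the H2-M5 difference was -0.40 and missed the threshold (adjusted p = 0.166), and 5 of 14 alternatives in all ended the call. A second H2-M5 probe was not well above background on any array. RefSeq gives that second probe the same name, while the probe used here was unmatched.

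H2-M11 (36685754 to 36685813) went the other way, with -3.72, -3.56 and -3.92 in Cdx1+/+ and -2.92, -3.38 and -3.10 in Cdx1-/- mTEC, a difference of 0.59 (SE 0.15, adjusted p = 0.0495). The groups do not overlap, but 12 of 14 alternatives ended the call. The H2-M10 genes of the same family did not pass: H2-M10.1 differed by -0.19 (adjusted p = 0.288), H2-M10.3 by -0.28 (adjusted p = 0.149) and H2-M10.2, above background on 2 Cdx1+/+ arrays and on no Cdx1-/- array, by a fitted -1.05 (adjusted p = 0.0753).

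Promoters of this family are shown because members of it passed in both directions. The windows below come from the RefSeq promoter table (GRCm38.p6), 5′ to 3′ on the gene's strand. Capitals mark CCAATCA, the reverse complement of TGATTGG, the Y box letters of class II promoters. The match is thus on the strand opposite to the gene, and whether it acts as a Y box was not tested.
H2-M1, chr17:36672242-36672298, minus strand: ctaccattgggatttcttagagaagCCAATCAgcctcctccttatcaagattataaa
H2-M9, chr17:36642689-36642745, minus strand: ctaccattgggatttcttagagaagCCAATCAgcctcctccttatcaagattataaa
H2-M11, chr17:36546968-36547024, plus strand: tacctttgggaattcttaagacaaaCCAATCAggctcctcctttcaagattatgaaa
H2-M10.1, chr17:36326195-36326251, minus strand: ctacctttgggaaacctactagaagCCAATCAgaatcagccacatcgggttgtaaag
H2-M10.3, chr17:36368456-36368512, minus strand: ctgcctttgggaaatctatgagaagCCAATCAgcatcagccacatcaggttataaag
The H2-M1 and H2-M9 windows are identical over all 57 bases. The H2-M11 window has 35 of 57 bases in common with the H2-M1 window when set base against base. H2-M10.1 and H2-M10.3 share 50 of 57. These windows were chosen for printing after the values were seen, and any link between their letters and the genotype differences was not tested.

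H2-T9, H2-T10 and H2-T24 lie in the T region of the MHC, and the RefSeq table lists H2-T10 as a transcribed pseudogene. H2-T9 (chromosome 17, 36177171 to 36177230) read 1.65, 1.71 and 1.62 in Cdx1+/+ and 2.18, 2.03 and 2.06 in Cdx1-/- mTEC, a difference of 0.43 (SE 0.08, 1.35-fold, adjusted p = 0.0233). H2-T10 (36255918 to 36255977) read 1.88, 1.83 and 1.76 against 2.22, 2.32 and 2.20, also 0.43 (SE 0.08, adjusted p = 0.0242). In both genes the spread within a genotype was 0.045 to 0.077 (SD, n = 3). For each of them 8 of 14 alternatives ended the call, among them slide as a block and every fit that left out an array. H2-T24 (36142640 to 36142699), near the detection limit, read -4.91, -4.57 and -4.52 against -4.26, -4.05 and -4.02, a difference of 0.55 (SE 0.13, adjusted p = 0.0428) that shrank to 0.20 after normexp background correction (adjusted p = 0.489). H2-T23, which encodes Qa-1, differed by 0.02 (95% interval -0.35 to 0.38), and H2-T3 by -0.08 (-0.84 to 0.68).

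Cd1d1, which presents lipids to natural killer T cells, read 2.41, 2.02 and 2.43 in Cdx1+/+ and 1.84, 1.66 and 1.88 in Cdx1-/- mTEC. The groups do not overlap, and its difference of -0.49 (SE 0.14) missed the threshold (adjusted p = 0.0629).

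In class I loading the one call was Tap1, which encodes a subunit of the peptide transporter. Tap1 (chromosome 17, 34330854 to 34330913) read 1.17, 1.05 and 1.12 in Cdx1+/+ and 1.74, 1.54 and 1.43 in Cdx1-/- mTEC, a rise of 0.46 (SE 0.11, 1.37-fold, adjusted p = 0.0386). It passed under 5 of 14 alternatives. Its partner Tap2 differed by 0.21 (SE 0.11, adjusted p = 0.245), and Psmb9, an immunoproteasome subunit whose gene is the neighbour of Tap1, by 0.15 (SE 0.08, adjusted p = 0.232). B2m, the light chain, differed by -0.11 (95% interval -0.62 to 0.40), H2-K1 by -0.08 (-0.50 to 0.34), H2-D1 by -0.04 (-0.30 to 0.21) and Tapbp by -0.04 (-0.29 to 0.22). The class I regulator Nlrc5 read 2.29, 2.19 and 2.19 against 2.45, 2.22 and 2.26, a difference of 0.09 (-0.14 to 0.32).

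**Figure D2:**
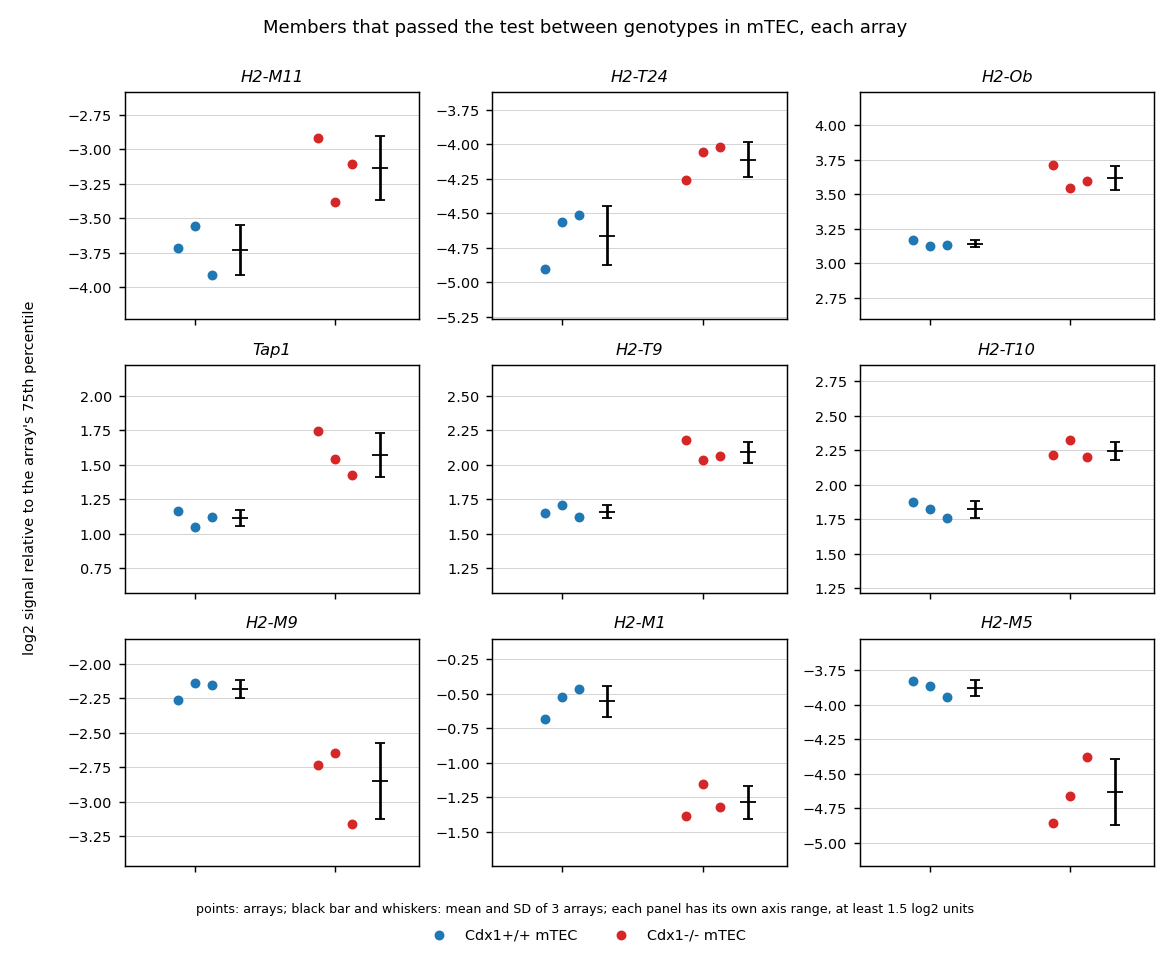
Level of each member that passed the test between genotypes in mTEC, on each of the 3 Cdx1+/+ arrays (blue) and 3 Cdx1-/- arrays (red), as log2 signal over the 75th percentile of each array, with mean and SD in black. In all 9 panels the 3 arrays of one genotype lie apart from the 3 of the other. The members were chosen by the test on these same arrays, so this separation adds no support to the calls.

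In class II the one call was H2-Ob, the beta chain of H2-O, which restrains peptide loading by H2-DM. H2-Ob (chromosome 17, 34380481 to 34380849) read 3.17, 3.13 and 3.13 in Cdx1+/+ and 3.71, 3.55 and 3.60 in Cdx1-/- mTEC, a rise of 0.48 (SE 0.08, 1.39-fold, adjusted p = 0.0174). A second H2-Ob probe differed by 0.52 and also passed when every probe was tested. Its partner chain H2-Oa differed by 0.11 (SE 0.10, adjusted p = 0.478). H2-O is also known from B cells, and 8 B cell marker genes moved beside it: their summed level was 9.8 to 11 in Cdx1+/+ and 12.7 to 14.2 in Cdx1-/- mTEC. Of them Cd79b (0.56) and Blk (0.65) rose, Ebf1 fell by 0.63, and Ighm was not well above background on any mTEC array. The summed level of 12 dendritic cell and macrophage genes was 33.5 to 39.7 against 30.5 to 34.9, where Lyz2 rose, Mrc1 fell and Xcr1 was not detected. Their part in the H2-Ob difference was not tested, and in sorted bulk samples fewer cells of a type and less RNA per cell cannot be told apart.

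The chains of the presenting class II molecules did not pass. H2-Aa read 7.38, 7.62 and 7.52 in Cdx1+/+ and 7.44, 7.66 and 7.61 in Cdx1-/- mTEC, a difference of 0.06 (95% interval -0.19 to 0.31). H2-Ab1 varied more, at 8.06, 9.02 and 8.59 against 7.73, 8.57 and 8.52, with a difference of -0.28 (-1.02 to 0.45). Replicate 1 was the lowest array of each genotype at H2-Ab1. The same is seen at H2-Eb1 (-0.24, SE 0.25) and at Cd74, which read 8.68, 9.44 and 9.15 against 8.34, 9.08 and 9.04, a difference of -0.27 (-0.90 to 0.36). In each of the 3 same-numbered pairs H2-Ab1, H2-Eb1 and Cd74 read lower in Cdx1-/- mTEC, and with replicate number as a block they still missed the threshold (adjusted p = 0.132 for both beta chains and 0.107 for Cd74). H2-DMa differed by 0.10 (adjusted p = 0.443) and H2-DMb1 by -0.26 (adjusted p = 0.116).

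No proteasome gene and no endosomal enzyme passed. Psmb8 differed by 0.08 (95% interval -0.13 to 0.30) and Psmb10 by 0.003 (-0.29 to 0.29). Ctss, the main class II protease of medullary and dendritic cells, differed by 0.20 (SE 0.10, adjusted p = 0.227), and Ctsl by -0.05 (-0.51 to 0.42). The cortical genes were uneven between arrays: Psmb11 read -4.38, -5.25 and -2.58 in Cdx1+/+ and -3.54, -3.15 and -2.71 in Cdx1-/- mTEC, and Prss16 read 2.62, 2.28 and 3.90 against 2.90, 3.04 and 3.33. At both genes Cdx1+/+ replicate 3 was the highest array and the groups overlap.

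Among 35 further genes of the pathway that are not members, 0 were higher and 3 lower in Cdx1-/- mTEC. Over all 24256 genes 12.9% were called (6.26% higher and 6.59% lower). March1, a ubiquitin ligase that removes class II from the surface, fell by 0.92 (adjusted p = 0.0416), Ctsh, a lysosomal protease, by 0.40 (adjusted p = 0.0325) and the endosomal tetraspanin Cd63 by 0.56 (adjusted p = 0.0090). None of the 7 genes of the class II enhancer complex and none of the 9 regulators of the interferon-gamma response passed.

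Between tissues the antigen display genes differed far more. In mTEC 41 of 61 were higher and 15 lower than in SIEC, where 83.6% of 25186 genes passed (34.3% higher and 49.3% lower). The median difference was 0.81 for the members and -0.43 for all genes tested, and 47 of the 61 lie above the median of all genes. The scaling between arrays matters in this comparison. The median of all genes was -0.10 after quantile normalization, -0.90 in the authors' table and -0.55 after normexp, and the members split 48 higher and 7 lower, 29 and 18, and 39 and 17 in these. Slide also bears on it, because both SIEC arrays share the second slide with 1 mTEC array, and with slide as a block 30 were higher and 14 lower.

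**Figure D3:**
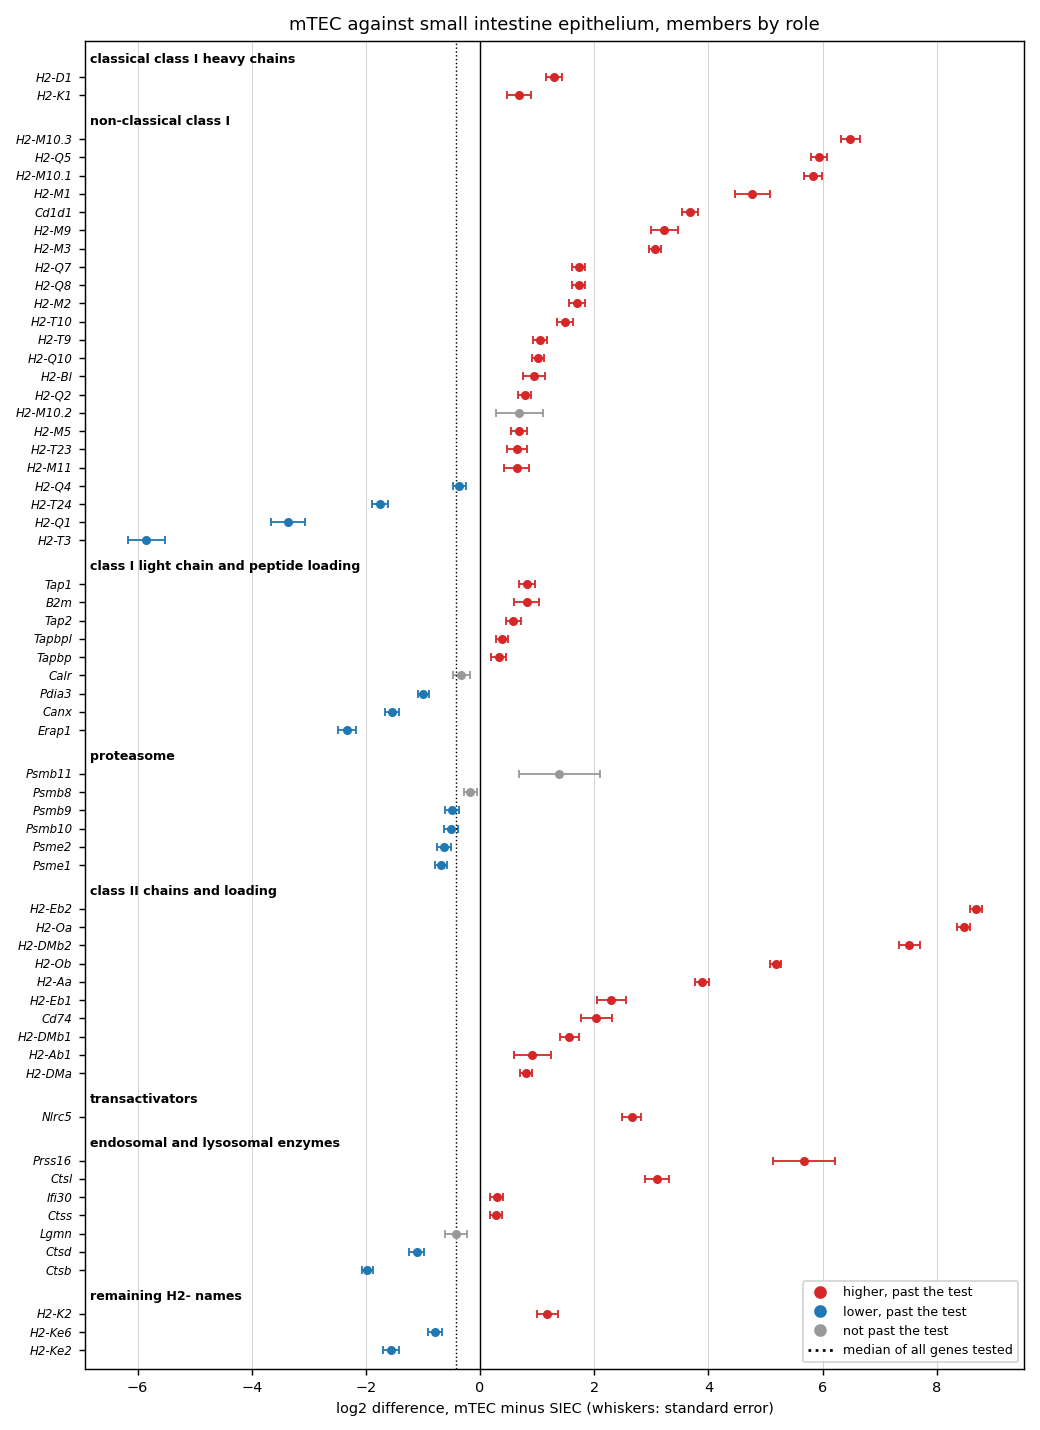
Log2 difference between mTEC and SIEC for the 61 tested members, grouped by role, with standard errors as whiskers and the median of all genes (-0.43) as the dotted line. The 10 class II genes all lie to the right of 0, 5 of the 6 proteasome genes lie close to the dotted line, and the non-classical class I genes run from H2-T3 at -5.85 to the fitted H2-M10.3 value of 6.49, which is set against SIEC signals not well above background.

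All 10 tested class II genes were higher in mTEC, which describes the sort as well as the cells, since the gate took MHC class II high cells. The direction was the same under every scaling, but the sizes were unequal. H2-Aa (chromosome 17, 34421285 to 34421344) read 7.38 to 7.66 on the mTEC arrays and 3.53 and 3.77 on the SIEC arrays, a difference of 3.89 (SE 0.12, 14.8-fold, adjusted p = 5.29e-08). H2-Ab1 read 7.73 to 9.02 in mTEC and 7.31 and 7.69 in SIEC, a difference of 0.91 (SE 0.32, adjusted p = 0.0293). It missed the threshold in the authors' table (0.44, adjusted p = 0.181), without SIEC replicate 1 (0.58, adjusted p = 0.26), with slide as a block (0.18, adjusted p = 0.7), and without mTEC Cdx1+/+ replicate 3 or Cdx1-/- replicates 2 or 3 (adjusted p between 0.0528 and 0.0545). SIEC thus gave a clear class II signal: H2-Eb1 read 6.45 and 6.70 there and Cd74 (chromosome 18, 60972075 to 60972132) 6.84 and 6.99, which is 2.30 (SE 0.26) and 2.04 (SE 0.27) below mTEC. The 12 dendritic cell and macrophage genes summed to 39.8 to 73.3 on the SIEC arrays, with 6 of them above background on both. Itgam was the brightest of them there, at a mean of 5.535. Of the 11 tested between tissues, 8 were higher and 2 lower in mTEC (Itgam among the lower), with a median difference of 2.39. The sum thus does not stand for the list, and the part of such cells in the class II levels was not tested.

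The largest class II differences were at H2-Eb2, a beta chain, at H2-Oa, and at H2-DMb2 of the loading complex. H2-Oa (34232033 to 34232092) read 6.25 to 6.58 in mTEC and -2.06 and -1.99 in SIEC, a difference of 8.47 (SE 0.11, 355-fold). Its partner H2-Ob differed by 5.18 (SE 0.10, 36.3-fold). H2-Eb2 and H2-DMb2 were not well above background on either SIEC array. In the main scaling they were at least 411-fold and at least 106-fold higher in mTEC (log2 8.68 and 6.73). After normexp their fitted log2 differences were smaller, at 6.89 and 4.92, so these bounds hold for the main scaling only. Other chains of the loading complex differed less, H2-DMa by 0.81 (SE 0.10) and H2-DMb1 by 1.56 (SE 0.16).

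Class II promoters are known for a shared module of X and Y boxes upstream of the start. In the RefSeq table (GRCm38.p6, 250 bases before to 50 after the start) 46 of the 66 gene names matched. The windows run 5′ to 3′ on the gene's strand, and capitals mark the Y box letters TGATTGG and, further upstream in H2-Eb1 and H2-Eb2, letters of the X box.
H2-Aa, chr17:34287859-34287918, minus strand: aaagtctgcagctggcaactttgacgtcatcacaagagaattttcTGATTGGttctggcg
H2-Eb1, chr17:34305761-34305820, plus strand: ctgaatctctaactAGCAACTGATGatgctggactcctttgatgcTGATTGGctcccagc
H2-Eb2, chr17:34325528-34325587, plus strand: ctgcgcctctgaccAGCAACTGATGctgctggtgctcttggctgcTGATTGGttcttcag
H2-DMb1, chr17:34153083-34153142, plus strand: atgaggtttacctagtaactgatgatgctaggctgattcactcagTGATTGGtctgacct
H2-DMb2, chr17:34145112-34145171, plus strand: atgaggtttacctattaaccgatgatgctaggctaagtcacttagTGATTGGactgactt
H2-Oa, chr17:34092289-34092348, plus strand: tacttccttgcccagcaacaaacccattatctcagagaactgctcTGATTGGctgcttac
H2-Ob, chr17:34238801-34238860, plus strand: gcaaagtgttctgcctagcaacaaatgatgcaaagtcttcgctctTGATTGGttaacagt
The Y box letters were found on the gene's own strand in 7 of 8 class II promoters, with the first base at -102 to -45 from the start, and the letters were in 7.82% of all 32851 promoters on either strand. H2-DMb1 and H2-DMb2 share 53 of 60 bases here. H2-DMb1 was 1.56 higher on the log2 scale in mTEC. H2-DMb2, not measured in SIEC, was at least 106-fold higher in the main scaling. Any link between the letters and these differences was not tested. On the opposite strand the Y box letters were in both classical class I promoters and in 10 of 17 non-classical ones. The X box letters, with any base at the seventh place, were in 0.07% of all promoters. In all, 15 letter patterns were searched on both strands, several of them shorter or longer forms of one box that overlap each other, and the 3 described here were chosen after their matches were seen. Of the other 12, 2 matched no member and the rest matched from 1 to 27 of the 46 members. A match is a description of letters, not of binding.

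**Figure D4:**
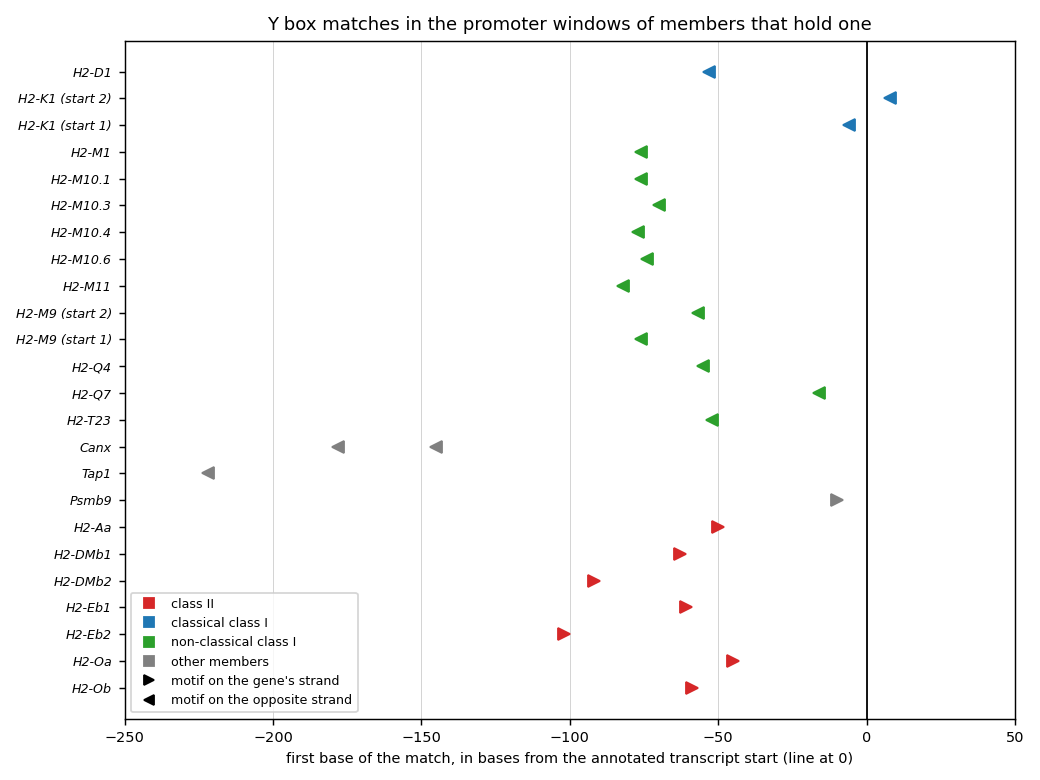
Position of each TGATTGG match in the promoter windows of the 22 members that hold one, in bases from the annotated start, with the arrowhead giving the strand. The 7 class II genes (red) have it on the gene's strand at -102 to -45, the classical (blue) and non-classical (green) class I genes have it on the opposite strand at -82 to 8, and Canx, Tap1 and Psmb9 are in grey.

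The classical class I chains were abundant in both tissues. H2-D1 (chromosome 17, 35403886 to 35403945) read 7.58 to 7.89 in mTEC and 6.19 and 6.59 in SIEC, a difference of 1.30 (SE 0.14, adjusted p = 5.85e-05). H2-K1 (34133055 to 34133114) read 8.01 to 8.59 against 7.43 and 8.03, a difference of 0.68 (SE 0.22, adjusted p = 0.0186) that missed the threshold in the authors' table (0.21, adjusted p = 0.312), without SIEC replicate 1 (0.34, adjusted p = 0.245) and with slide as a block (0.16, adjusted p = 0.581). Both promoters hold the same enhancer A letters, a known element of class I genes, in capitals here. They were in 0.0304% of all promoters.
H2-K1, chr17:34000428-34000478, minus strand: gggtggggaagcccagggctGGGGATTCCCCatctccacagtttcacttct
H2-D1, chr17:35262903-35262953, plus strand: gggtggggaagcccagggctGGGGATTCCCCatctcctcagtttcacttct
The windows share 50 of 51 bases.

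Non-classical class I genes showed the widest range, with 18 of 23 higher and 4 lower in mTEC. Over all 25186 genes 34.3% were higher and 49.3% lower. Among the 18, H2-M1, H2-M5, H2-M9, H2-M10.1, H2-M10.3 and H2-M11 were well above background on neither SIEC array. H2-T3, which encodes the thymus leukaemia antigen known from gut epithelium, was the clearest intestinal gene. H2-T3 (36322516 to 36322575) read -4.57 to -3.46 in mTEC and 1.70 and 2.16 in SIEC, a difference of -5.85 (SE 0.32, 57.7-fold lower in mTEC, adjusted p = 1.26e-06). H2-Q1 (35461859 to 35461918) read -0.47 to 0.14 against 2.53 and 3.67, a difference of -3.36 (SE 0.30), and H2-T24 was 1.75 lower (SE 0.14). H2-Q4 was lower by a smaller amount (-0.36, SE 0.11) and turned to 0.65 after quantile normalization. In the opposite direction H2-Q5 (35532392 to 35532451) read 6.69 to 7.06 in mTEC and 0.61 and 1.26 in SIEC, a difference of 5.93 (SE 0.14, 61-fold). RefSeq lists H2-Q5 as a transcribed pseudogene, as it does H2-T10. Cd1d1 was 3.67 higher (SE 0.14), and H2-M3, which presents formylated peptides, 3.06 higher (SE 0.11).

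Several genes of the vomeronasal family were measured only in mTEC. H2-M10.3 (36501999 to 36502058) read 0.65 to 1.19, H2-M10.1 (36460010 to 36460069) 0.01 to 0.47, H2-M1 -1.38 to -0.46 and H2-M9 -3.17 to -2.14, and none was well above background on a SIEC array. In the main scaling they were at least 25.5-fold, 15.9-fold, 7.31-fold and 2.41-fold higher in mTEC (log2 4.67, 3.99, 2.87 and 1.27). After normexp their fitted log2 differences were smaller, at 3.06, 2.51, 1.61 and 0.51. H2-M11, on all 6 mTEC arrays, was at least 1.2-fold higher, and its sign turned after normexp (-0.44), as did that of H2-M5 (-0.50). The H2-M11 call also ended in the authors' table (0.16), after quantile normalization (0.30), without SIEC replicate 1 (0.24), without the genotype term, and with replicate number (adjusted p = 0.0523) or slide (adjusted p = 0.0865) as a block. The H2-M5 call ended in the authors' table (0.20), with slide as a block (0.43) and without the genotype term.

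In class I loading 5 of 9 genes were higher and 3 lower in mTEC, where 34.3% of all 25186 genes were higher and 49.3% lower. B2m (chromosome 2, 121978401 to 121978460) read 7.30 to 8.05 against 6.86 and 7.08, a difference of 0.81 (SE 0.22, adjusted p = 0.0088) that missed the threshold in the authors' table (0.34, adjusted p = 0.134), without SIEC replicate 1 (0.65, adjusted p = 0.0889) and with slide as a block (0.27, adjusted p = 0.338). Tap1 was 0.82 higher (SE 0.14) and Tap2 0.59 (SE 0.13), but neither passed in the authors' table (0.35 and 0.11). Tapbp was 0.33 higher (SE 0.13, adjusted p = 0.0496) with a turned sign in the authors' table, and Tapbpl turned there too (-0.09). The Tapbp call ended without SIEC replicate 1 (0.15, adjusted p = 0.399), with slide as a block (0.19, adjusted p = 0.439), and without any Cdx1+/+ mTEC array or Cdx1-/- mTEC replicate 2 or 3. Lower in mTEC were Erap1 (-2.33, SE 0.16), the peptidase that trims class I peptides, and the chaperones Canx (-1.54, SE 0.12) and Pdia3 (-0.99, SE 0.10). After quantile normalization Canx was at -0.53 and Pdia3 at -0.10, where Pdia3 missed the threshold (adjusted p = 0.353). Erap1 (chromosome 13, 74828969 to 74829028) read -2.54 to -2.02 in mTEC and -0.01 and 0.05 in SIEC, with no overlap.

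No proteasome gene was higher in mTEC, and the direction rests on the scaling. Psmb9 read 4.92 to 5.13 in mTEC and 5.65 and 5.36 in SIEC, and Psmb10 6.99 to 7.34 against 7.66 and 7.71. Psmb9 (-0.49), Psmb10 (-0.51), Psme1 (-0.68) and Psme2 (-0.63) were lower in mTEC and Psmb8 (-0.17, adjusted p = 0.19) did not pass, but after quantile normalization all 5 turned to between 0.40 and 0.75. They lie within 0.26 of the median of all genes in the main scaling. Psmb11, the thymoproteasome subunit of cortical epithelium, was above background on 5 of 6 mTEC arrays and no SIEC array and did not pass (adjusted p = 0.102).

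The regulator Nlrc5 (chromosome 8, 97051105 to 97051164) read 2.19 to 2.45 in mTEC and -0.80 and 0.01 in SIEC, a difference of 2.66 (SE 0.17, 6.32-fold, adjusted p = 2.64e-06). Among the enzymes, Prss16 (chromosome 13, 22094369 to 22094428) was 5.67 higher in mTEC (SE 0.55), with only 1 of 2 SIEC arrays above background, and Ctsl (64465287 to 64465346) read 4.38 to 5.16 against 1.46 and 1.88, 8.55-fold higher (SE 0.21 on the log2 scale). Both are known from cortical epithelium. Of 6 cortical marker genes 5 were above background on every Cdx1+/+ and 6 on every Cdx1-/- mTEC array. Their summed levels were 319 to 460 in mTEC and 861 to 927 in SIEC, where Krt8 (mean 9.14) and Ccl25 (8.30) were the brightest. Between tissues 2 of the 6 were higher in mTEC (Cxcl12 and Dll4) and 3 lower, so the sum does not stand for the list. The part of cortical cells in these levels was not tested. The lysosomal proteases Ctsb (-1.98, SE 0.10) and Ctsd (-1.11, SE 0.13) were lower in mTEC, though Ctsd missed the threshold after quantile normalization (-0.21). Ctss (0.28) and Ifi30 (0.29), a thiol reductase, were marginally higher and turned sign in the authors' table. Leaving out any array but Cdx1+/+ mTEC replicate 2 ended the Ctss call, and any but Cdx1+/+ mTEC replicate 1 or SIEC replicate 1 ended that of Ifi30.

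Of the 3 remaining H2- names, H2-K2, a pseudogene next to H2-K1, was 1.18 higher in mTEC (SE 0.19). H2-Ke2, which the RefSeq table names Pfdn6, a prefoldin subunit, was 1.55 lower (SE 0.14), and H2-Ke6 was 0.79 lower (SE 0.12) but at 0.04 after quantile normalization. Of the 35 further pathway genes 8 were higher and 22 lower in mTEC, where 83.6% of all 25186 genes passed (34.3% higher and 49.3% lower). Among the 35 were Socs1, a brake on cytokine signalling, at 3.35 and the interferon-gamma receptor chain Ifngr1 at -2.71.

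**Figure D5:**
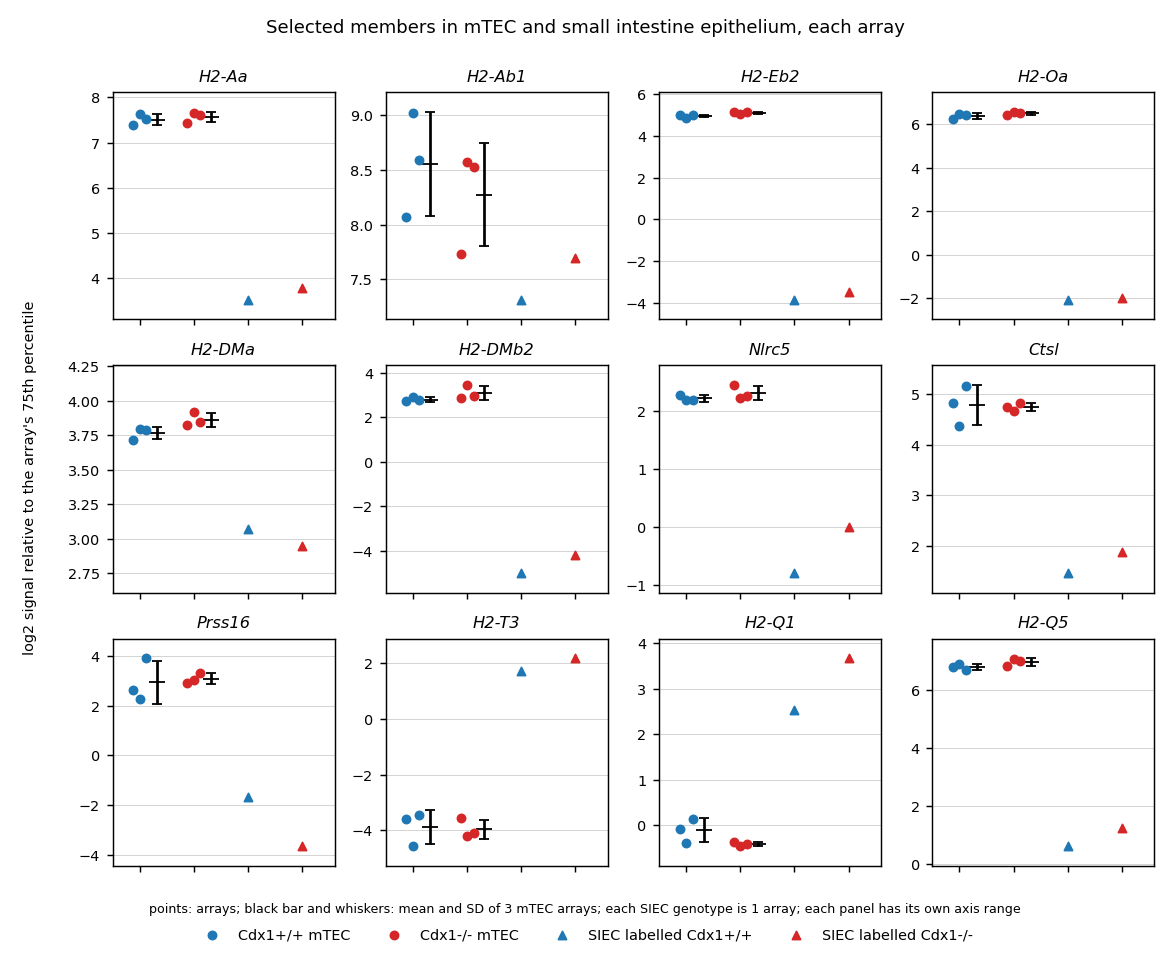
Level of 12 members on every array (log2 signal over the 75th percentile), with mean and SD of 3 mTEC arrays in black, mTEC as circles and SIEC as triangles, Cdx1+/+ in blue and Cdx1-/- in red as labelled. H2-Eb2, H2-Oa, H2-DMb2 and H2-Q5 lie far higher in mTEC, H2-T3 and H2-Q1 higher in SIEC, and the SIEC values of H2-Ab1 reach 7.69, close to the lowest mTEC value of 7.73.

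The 2 SIEC arrays on their own allow values but no test, and the direction follows labels that the Cdx1 probe goes against. Of 50 members measured on both, 37 read higher and 13 lower on the array labelled Cdx1-/-, with a median of 0.22 against -0.04 for all genes. H2-Q1, at 1.14, was the one member at least 2-fold higher and 0 were 2-fold lower, where 4.57% of 17011 genes differed by that much (3.42% higher and 1.16% lower). By the authors' table the split was 26 higher and 24 lower, with a median of 0.005, H2-Q1 differed by 0.92 and no member reached 2-fold. Nlrc5 (0.80), Lgmn (0.71), H2-Q5 (0.65) and H2-K1 (0.60) followed.

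The genotype difference in mTEC was set against that in SIEC in 1 fit, in which the lone SIEC arrays are assumed to vary like the mTEC arrays. Of 61 members 0 were higher and 3 lower, 4.92% against 14.5% of 25186 genes (5.57% higher and 8.89% lower), and 13 had an unadjusted p under 0.05. The 3 were H2-M1 (-1.52, adjusted p = 0.0073), H2-Q1 (-1.45, adjusted p = 0.0220) and Lgmn (-0.91, adjusted p = 0.0166), an endosomal protease that cuts after asparagine. H2-M1 was not well above background on either SIEC array, so its value rests on background signal there. With the 2 SIEC labels turned, a fit added after seeing the data, H2-Q1 was at 0.83 (adjusted p = 0.128), Lgmn at 0.50 (adjusted p = 0.113) and H2-M1 at 0.06, and none passed. In that fit 3 members were higher (H2-M11, H2-Ob and Nlrc5) and 1 lower (H2-M5), against 1598 higher and 931 lower among all 25186 genes. H2-M11 and H2-M5 were not well above background on either SIEC array, so their values also rest on background signal there. Both calls and directions thus rest on the SIEC labels.

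Where a gene had several probes, they did not always give the same picture. Of 15 genes with several tested probes, 5 had probes of opposite sign between genotypes (Ctsd, H2-K1, H2-Q10, Nlrc5 and Psme2). For H2-Q10 the brighter probe differed by 0.10 and the other by -0.70, which passed when every probe was tested (adjusted p = 0.0312). Between tissues the 2 probes of H2-M2 differed by 1.70 and 8.13, and those of H2-M10.3 by 6.49 and 0.91. MHC genes are close copies of each other, so a probe may read a relative: 3 pairs of probes for different members share a run of 20 or more bases, a minimum set after the runs were seen. The probe of H2-T23 shares 29 bases with the second H2-K1 probe, the second H2-K2 probe shares 28 with that of H2-Q7, and that of H2-T3 shares 22 with the second H2-Q10 probe, the run TTGTGGAGGAAATAAATGGCAG. The H2-T3 and second H2-Q10 probes went opposite ways between tissues (-5.85 and 2.91).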

How the data were processed

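Expression was measured with 1-colour arrays. The authors deposited scanner files of linear intensity values per spot, made with Agilent Feature Extraction 10.7.3.1 and background-subtracted within each array, per the file headers. Their deposited normalized signal table is the processed intensity times 1 constant per array, and how that constant was set is not stated. From 59305 non-control spots, 55669 probes were used. Each intensity was divided by its array's 75th percentile before taking log2, and the brightest detected probe stood for each gene. Gene names and probe positions (mm9) are those of the files, and 73 of 87 member probes carry the same name in RefSeq. Groups were compared with limma 3.58.1 in R 4.3.3 in 2-sided tests, Benjamini-Hochberg adjusted across every gene at a threshold of 0.05, with a script tested on simulated data. Tissues were compared on 8 arrays with genotype as a term. Deviations of same-numbered mTEC samples from their group means correlated by 0.322, 0.148 and 0.151 over 24256 genes, so a fit with replicate number as a block was run as an alternative. The main fits had no term for replicate number, and their differences, standard errors and adjusted p-values are unpaired. Slides coincide with scanning sessions. For an "at least" fold, the brighter group's mean was compared with a floor averaged over the dim arrays. On each array the floor is the probe's own signal or the weakest detected one, whichever is higher. Such a bound holds for the main scaling only. Genes were named by rule: members called between genotypes, a list of core genes, up to 3 members per role and direction between tissues, and Cdx1. Members and lists were chosen with earlier results of these data known, and other genes named were chosen after their values were seen. The alternatives were other scalings, background corrections, filters, probe choices and blocks, and leaving out each array. The number of arrays limits the precision, and p-values measure the spread between these pools. An exact permutation test of 3 against 3 cannot go below 0.1.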

Additional observations from a re-analysis of the deposited data

Results flagged for a closer look

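H2-Q1 and Lgmn are given here because their genotype difference was called unlike in mTEC and SIEC, among members measured on all 8 arrays, a limit set after the values were seen. The call rests on 1 SIEC array per label, assumed to vary like the mTEC arrays, so SIEC has no spread of its own. H2-Q1 differed by -0.31 (SE 0.14) between Cdx1-/- and Cdx1+/+ mTEC and by 1.14 between the SIEC arrays as labelled, a difference of -1.45 (SE 0.28, limma adjusted p = 0.0220) that ran from -1.45 to -1.22 over the scalings and filters and passed under each. Lgmn differed by -0.21 (SE 0.08) and 0.71, a difference of -0.91 (SE 0.16, adjusted p = 0.0166), and its adjusted p ran up to 0.0697. H2-M1 had -1.52 but was not measured in SIEC. The Cdx1 probe goes against the SIEC labels, and with them turned H2-Q1 (0.83) and Lgmn (0.50) had the opposite sign and did not pass.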

How the results depend on the processing

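Between genotypes in mTEC, 6 members were higher and 3 lower. Without a filter on dim probes 0 were higher, and with slide as a block 1 was higher. Leaving out 1 array gave 0 to 2 higher and 1 to 3 lower. With replicate number as a block 5 were higher and 4 lower. Between tissues leaving out 1 array gave 35 to 40 higher and 14 to 16 lower, and quantile normalization gave 7 lower in place of 15, with a median difference of all members of 1.71 against 0.815. There H2-Ke6 (0.0385), Psmb8 (0.75), Psmb9 (0.47), Psmb10 (0.65), Psme1 (0.40) and Psme2 (0.54) turned to positive, as did H2-Q4 (0.65), Calr (0.72) and Lgmn (0.33). In the authors' table Ctss (-0.20), Ifi30 (-0.19), Tapbp (-0.15) and Tapbpl (-0.09) turned to negative, and after normexp H2-M11 (-0.44) and H2-M5 (-0.50) did. With replicate number as a block between tissues 38 were higher and 16 lower, and of the genes named Ctss, Ifi30 and H2-M11 missed the threshold. The difference of genotype effects had 1 higher and 5 lower after quantile normalization and 2 higher in the authors' table, where 0 members were 2-fold higher between the SIEC arrays. With the SIEC labels turned, an alternative chosen after seeing the data, 3 were higher and 1 lower, and H2-M1 (0.0589), H2-Q1 (0.83) and Lgmn (0.50) turned. The cause of these changes was not tested. Dim probes are limited by signal over background.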
